A study of Homo sapiens with 4 samples.

Results

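Axon guidance genes encode the secreted and membrane-bound cues that steer growing nerve fibres, and the receptors that read them. They were examined on whole-genome expression arrays of a human glioblastoma cell line, LN229, in which *SOX2* had been knocked down. The members were chosen by name, as all probes whose gene symbol begins with SEMA3 to SEMA7 (semaphorins), PLXN (plexins), EPHA or EPHB (Eph receptors), EFNA or EFNB (ephrins), SLIT, ROBO, NTN (netrins) or UNC5, or equals NRP1, NRP2 (neuropilins) or DCC. This rule took 98 of the 33096 probes on the array. They belong to 84 of 27739 features, a feature being the mean of all probes that share a gene ID in the array's annotation, and to 79 genes by their current symbols. The prefixes also caught 9 features of genes that are neither slits nor UNC5 receptors (*SLITRK1* to *SLITRK6*, *SLITL2*, *UNC50* and *UNC5CL*), which are treated as a group of their own.

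LN229 cells grown in DMEM were transiently transfected with siRNA against *SOX2* (SOX2 knockdown) or with a control siRNA that has no target (mock). Each group had 2 arrays, made from separate transfections, each from 250 ng of total RNA labelled with biotin. The study asked which genes *SOX2*, a transcription factor of stem cells, regulates in a glioma line. Which of the siRNAs against *SOX2* was used on these arrays is not given in the sources used here.

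As background, guidance cues attract or repel the growth cone at the tip of a growing fibre, and many of them also act on migrating, vascular and tumour cells. Semaphorins signal through plexins, with neuropilins as co-receptors for most of the secreted class 3 proteins. Ephrins and Eph receptors both sit in membranes, so they signal at contacts between cells and in both directions, while slits act through Robo receptors and netrins through DCC and UNC5 proteins.

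A signal is stated as a multiple of the 75th percentile of the features on its own array. To be compared, a feature had to exceed 3 in its ratio of signal to noise (S/N) in either group, on both of the group's arrays, which kept 18378 features in all. *SOX2* itself measured 0.454 and 0.682 in mock cells and 0.204 and 0.145 after knockdown, where its S/N was 3.17 and 3.06. Its log2 change, knockdown minus mock, was -1.69 (SE 0.28, limma adjusted p = 0.114), so the labels and the target gene went the same way. Because 1 label field mentions the colon cancer line SW620 instead of LN229, markers were checked. Of 10 glioma and mesenchymal markers, 8 (*VIM*, *CD44*, *NES*, *S100B*, *GFAP*, *SPARC*, *TNC* and *CAV1*) passed S/N of 3 on each of the 4 arrays and *FN1* and *CHI3L1* were not kept. The summed signal of the list was 188 and 236 for mock and 184 and 170 for knockdown. Of 10 colon epithelial markers found, 4 (*CDH1*, *KRT8*, *KRT18* and *VIL1*) passed S/N of 3 on each of the 4 arrays. *CDX2* and *LGALS4* passed on 2 arrays and were kept too. *CDX1* passed on 2 arrays, *CEACAM5* and *TACSTD1* (*EPCAM*) on 1 and *KRT20* on none, and these were not kept. *CDH1* (E-cadherin) was bright and uneven, at 13.9 and 49.2 for mock and 22.0 and 46.7 for knockdown, and it made most of the list's summed signal of 19.8 and 55.3 for mock and 29.2 and 53.6 for knockdown. The part of these markers in the results was not tested.

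Of the 84 axon guidance features 57 were compared, and for 53 of these S/N was over 3 on each of the 4 arrays. The other 27 had signals between 0.01 and 0.18. Of these, 19 had S/N over 3 on no array, among them *DCC* and *ROBO2*, 5 on 1 array and 3 on 2 arrays. The loss was uneven between families. Only 4 of 12 EphA features and 1 of 3 slit features were compared, against 9 of 10 plexin features, 5 of 5 ephrin-A features and 16 of 21 semaphorin features.

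By the cutoff of the study's methods, a 2-fold ratio of the replicate means, *SEMA3E* and *SEMA5A* were lower after knockdown and no axon guidance feature was higher. The study already lists both among its changed genes. Over all features compared, 2.38% passed this cutoff, 0.909% downwards and 1.47% upwards. No axon guidance feature had an adjusted p under 0.05 in limma with Benjamini-Hochberg adjustment over all 18378 features, and neither did any other feature (0%). With array median scaling, with no further scaling and in the table the authors processed, 4 members passed (*EPHA4*, *PLXNB1*, *SEMA3E* and *SEMA5A*), as did 3.64%, 3.54% and 3.48% of all features. In those 3 fits limma gave every feature the same standard error. With limma-trend 3 members passed (*SEMA3E*, *SEMA5A* and *SLITRK6*), as did 1.31% of all features. At an unadjusted limma p under 0.05 there were 14 axon guidance features, 24.6% of those compared, beside 17.2% of all features. Of the 14, 6 were higher (8.12% of all features were) and 8 were lower (9.07% of all features were). The lowest adjusted p-values were 0.0836 for *SEMA3E* and 0.098 for *SEMA5A*. These were the only members under 0.1, as were 0.903% of all features. Since 2 arrays stand for each group, the p-values weigh a change against the spread between these transfections, and precision is limited by that number. In limma part of that spread is drawn from all features, and all of it in the 3 fits with the same standard error. In a bulk sample, fewer cells of a type and less RNA per cell cannot be told apart.

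The 57 log2 changes ran from -1.46 to 0.94, with a median of -0.11, beside a median of 0.00 over all features. Of them 36 were below 0 (63.2%, beside 49.7% of all features). The 2 arrays of a group did not overlap with the 2 of the other group for 29 members (50.9%, beside 47.2% of all features), 12 of them higher (21.6% of all features were) and 17 lower after knockdown (25.7% of all features were). Duplicate arrays differed by a median of 0.26 on the log2 scale in the mock group and 0.19 in the knockdown group over the members, and by 0.22 and 0.16 over all features. The median of the members was -0.018 when mock replicate 1 was left out. Leaving out SOX2 knockdown replicate 1 gave -0.021, and leaving out its duplicate, replicate 2, gave -0.18.

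**Figure D1:**
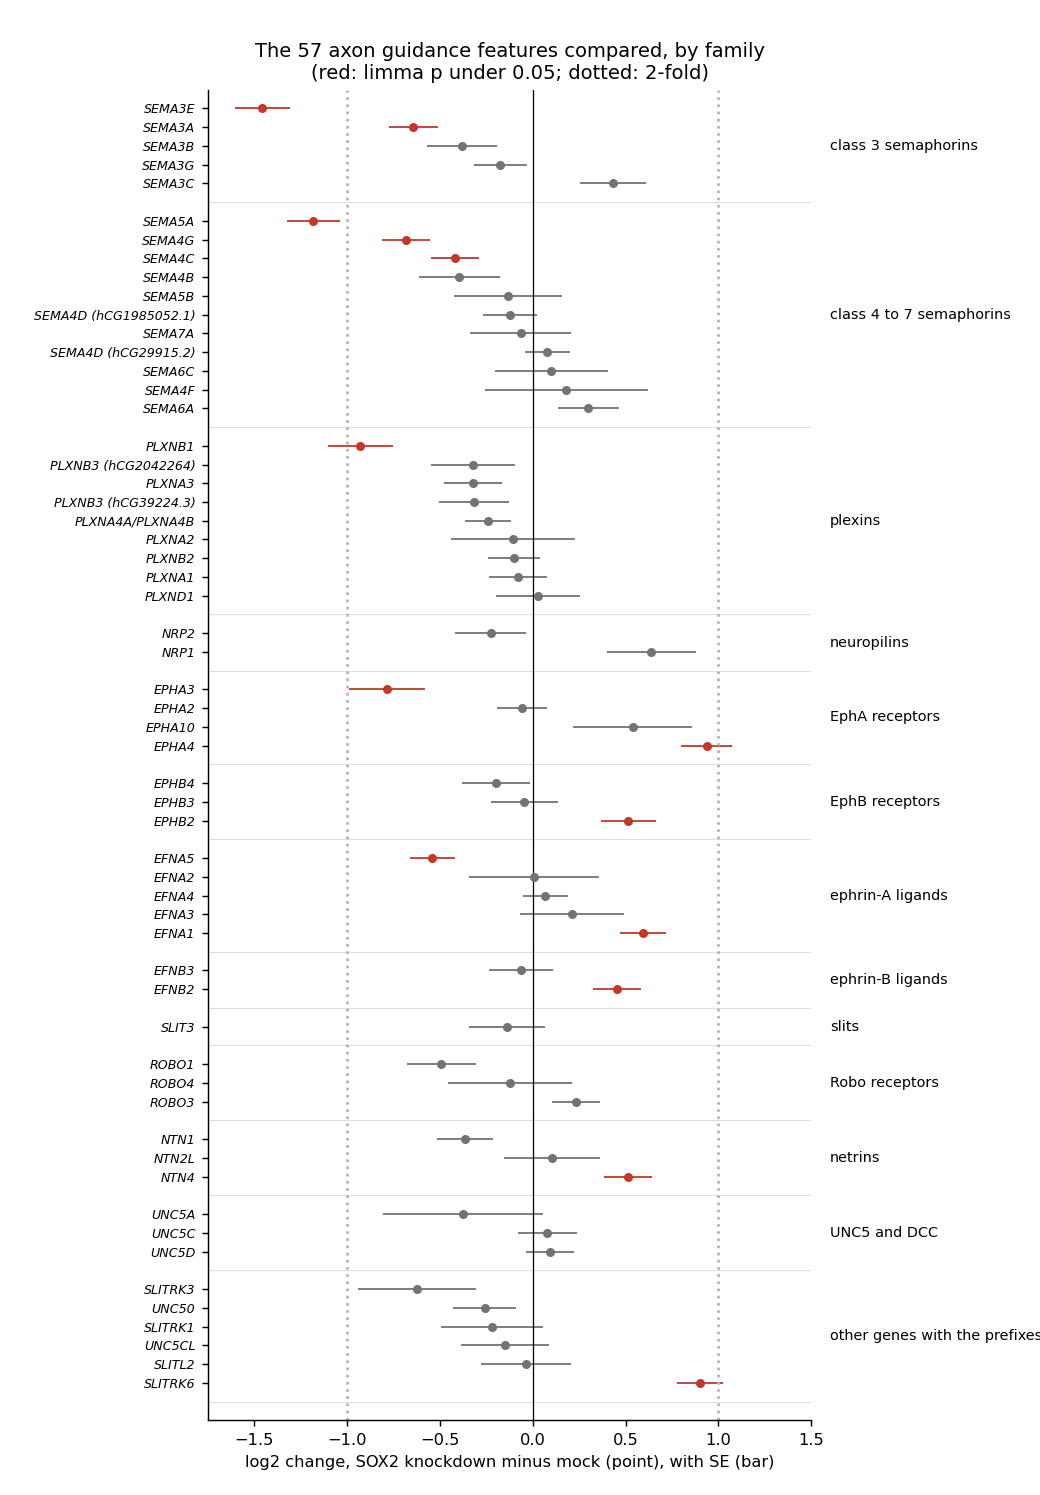
The log2 change of each of the 57 axon guidance features compared, SOX2 knockdown minus mock (x axis), by family, with the standard error from limma (bars; 2 arrays per group). Red points mark limma p under 0.05 without adjustment and dotted lines a 2-fold change. Semaphorins and plexins lie mostly left of 0, and the 4 red points right of 0 among Eph receptors and ephrins are *EPHA4*, *EFNA1*, *EPHB2* and *EFNB2*.

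Among the cues, the semaphorins gave the 2 members past the 2-fold cutoff. *SEMA3E*, a secreted class 3 semaphorin that binds plexin-D1, had signals of 0.250 and 0.216 in mock cells and 0.090 and 0.080 after knockdown. Both knockdown arrays lay far below both mock arrays, at a ratio of means of 0.364 and a log2 change of -1.46 (SE 0.15, limma adjusted p = 0.0836). Under normexp background correction of the raw readings, run with an added offset of 50, the change was -0.97 and *SEMA3E* no longer passed 2-fold. Changes were smaller more widely in that setting, where 0.958% of all features passed 2-fold and *SOX2* changed by -1.16.

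*SEMA5A*, a transmembrane semaphorin with thrombospondin repeats, had signals of 2.53 and 2.23 in mock cells and 1.11 and 0.989 after knockdown. The groups did not overlap, the ratio of means was 0.441 and the log2 change was -1.18 (SE 0.14, limma adjusted p = 0.098). It passed 2-fold under every alternative with that cutoff, with log2 changes between -1.27 and -1.09. *SEMA3A*, the secreted repellent for which growth cone collapse is best known, measured 3.39 and 3.16 in mock cells and 2.19 and 2.003 after knockdown. Its log2 change was -0.64 (SE 0.13, limma adjusted p = 0.137), again without overlap.

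*SEMA4G* and *SEMA4C*, both transmembrane class 4 semaphorins, were also lower at p under 0.05 in limma. *SEMA4G* was dim, at 0.095 and 0.105 in mock cells and 0.064 and 0.060 after knockdown, and only 1 of the 2 knockdown arrays had S/N over 3. Its log2 change of -0.68 (SE 0.13, limma adjusted p = 0.130) was -0.17 under normexp. *SEMA4C* measured 0.353 and 0.388 against 0.285 and 0.268, a log2 change of -0.42 (SE 0.13, limma adjusted p = 0.231). Here the groups did not overlap either, but the gap between the nearest arrays was small.

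Of the 16 semaphorin features compared, 11 had a log2 change below 0 (68.8%, beside 49.7% of all features) and 5 above, with a median of -0.15. At p under 0.05 in limma 5 were lower and none was higher, beside 9.07% and 8.12% of all features. The lower count was 4 of 15 with S/N over 3 required on all 4 arrays. It was 4 with array median scaling, no further scaling, the authors' table and the replicate block, and 3 under normexp. With no S/N filter it was 6 of 21. When 1 array was left out in turn, between 9 and 13 were below 0, between 3 (without SOX2 knockdown replicate 2) and 6 were lower at that p, and 1 or none was higher. *SEMA3C*, another secreted semaphorin, was an exception in direction. It had signals of 6.88 and 9.0 in mock cells and 10.7 and 10.5 after knockdown, a log2 change of 0.43 (SE 0.18, limma adjusted p = 0.327) that was 0.24 without mock replicate 1 and 0.63 without mock replicate 2. Its groups did not overlap, although the mock arrays differed from each other by more than mock replicate 2 did from either knockdown array. In the RefSeq gene order of chromosome 7, *SEMA3E*, *SEMA3A* and *SEMA3D* are neighbours with no protein-coding gene between them, and *SEMA3C* lies 3 protein-coding genes away from *SEMA3E*. *SEMA3D* was not kept, so of these 4 genes 2 were lower at p under 0.05 and 1 was higher without passing it.

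None of the remaining semaphorin features had p under 0.05. *SEMA4D*, which signals through plexin-B1, is represented by 2 features. The first measured 3.70 and 3.77 in mock cells and 4.03 and 3.86 after knockdown (log2 change 0.08, SE 0.12), and the second, whose gene ID also covers a probe of another symbol that was at background, had a log2 change of -0.13 (SE 0.15). *SEMA6A*, a transmembrane semaphorin that binds class A plexins, had a log2 change of 0.30 (SE 0.16; 0.17 without mock replicate 2) that rested on 1 of its 2 probes, as described with the probes.

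Receptors of the semaphorins were led by *PLXNB1*, the plexin-B1 receptor. Its signals were 5.64 and 7.31 in mock cells and 3.46 and 3.29 after knockdown. The mock arrays were unequal, yet both lay above both knockdown arrays, at a ratio of means of 0.521 and a log2 change of -0.93 (SE 0.17, limma adjusted p = 0.129). The ratio passed 2-fold when mock replicate 1 was left out. Of the 9 plexin features compared 8 had a log2 change below 0 (88.9%, beside 49.7% of all features), and the median was -0.24. *PLXNB1* was the only plexin with p under 0.05 in limma (11.1% of the plexin features, beside 17.2% of all features). Between 6 and 8 plexin features were below 0 when 1 array was left out, and between 1 and 3 (without mock replicate 1) had p under 0.05.

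*PLXNB2*, another class B plexin, had signals of 7.60 and 8.77 in mock cells and 7.84 and 7.39 after knockdown. These overlapped, and its log2 change was -0.10 (SE 0.14). *PLXNB3* has 2 features, with log2 changes of -0.32 each (SE 0.23 and 0.19), of which the latter comes from a probe annotated to both *STK23* and *PLXNB3*. *PLXND1*, the receptor of *SEMA3E*, measured 1.04 and 1.54 in mock cells and 1.34 and 1.25 after knockdown, with the knockdown arrays inside the range of the mock arrays. The neuropilins went different ways without passing the test. *NRP2* had signals of 0.776 and 0.902 against 0.816 and 0.626 (log2 change -0.23, SE 0.19, but -0.036 without SOX2 knockdown replicate 2), and *NRP1*, dim and with S/N of 2.29 on 1 mock array, had signals of 0.047 and 0.033 against 0.068 and 0.054 (log2 change 0.64, SE 0.24, limma adjusted p = 0.292).

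**Figure D2:**
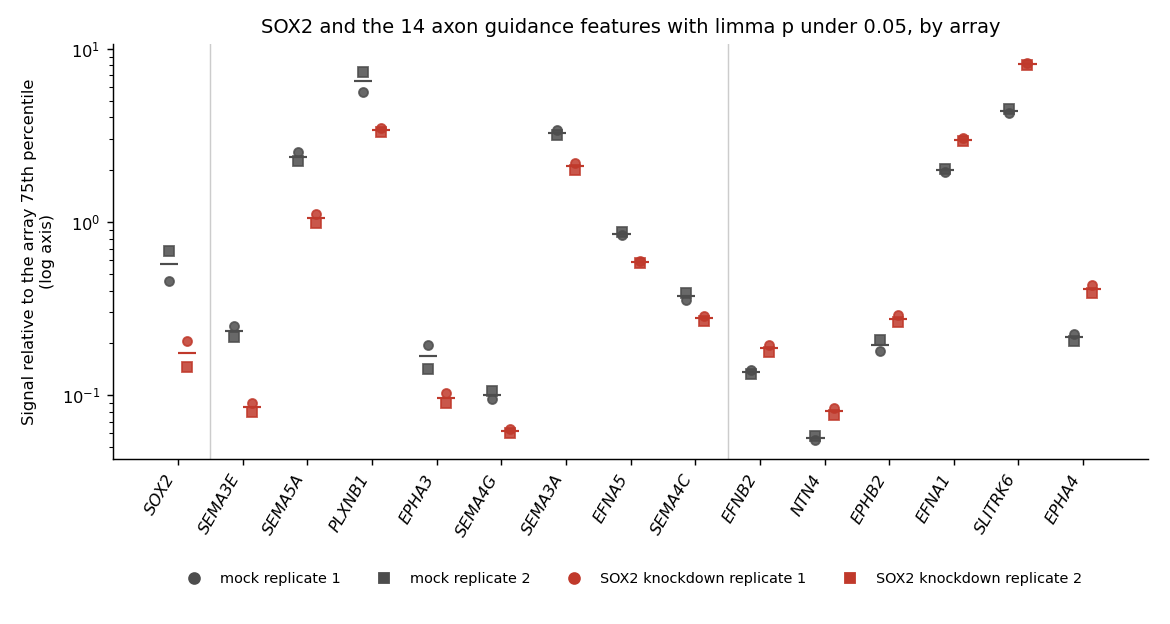
Signals of *SOX2* and of the 14 axon guidance features with limma p under 0.05 on each of the 4 arrays, relative to the 75th percentile of the array (log axis). Circles and squares are replicates 1 and 2, grey is mock, red is SOX2 knockdown, and short lines are group means. For each of the 15 genes both knockdown arrays lie on the same side of both mock arrays. Picking the 14 by p on these same arrays favours such a separation.

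Eph receptors and ephrins had 14 features compared, 8 above 0 and 6 below (42.9%, beside 49.7% of all features), with a median log2 change of 0.04. At limma p under 0.05 4 were higher and 2 lower, and when 1 array was left out between 1 (without SOX2 knockdown replicate 1) and 4 were higher, and 2 or fewer were lower (0 without SOX2 knockdown replicate 2). With quantile normalization, array median scaling, no further scaling and the authors' table, 2 were higher and 2 lower at that p. Under normexp 5 were above 0 and 9 below. In the fit reported, 8.12% of all features were higher and 9.07% lower at limma p under 0.05. *EPHA4*, a receptor for ephrins of both classes, had the highest log2 change of the 57 members. It measured 0.225 and 0.205 in mock cells and 0.434 and 0.389 after knockdown, so that both knockdown arrays lay well above both mock arrays. The ratio of means was 1.92 and the log2 change 0.94 (SE 0.14, limma adjusted p = 0.103), and the ratio passed 2-fold when either mock replicate 1 or SOX2 knockdown replicate 2 was left out.

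*EPHA3*, another EphA receptor, was lower. It had signals of 0.194 and 0.141 in mock cells and 0.103 and 0.090 after knockdown, a log2 change of -0.79 (SE 0.21, limma adjusted p = 0.186). Under normexp with its offset of 50 this change was -0.11, although S/N was between 7.08 and 14.01 on the 4 arrays. *EPHB2*, an EphB receptor, measured 0.178 and 0.209 against 0.289 and 0.262, a log2 change of 0.52 (SE 0.15, limma adjusted p = 0.213) that was 0.27 under normexp. The receptor *EPHA2*, at 3.19 and 3.02 in mock cells and 3.17 and 2.81 after knockdown, overlapped between groups (log2 change -0.06, SE 0.14), and so did *EPHB3*, at 0.795 and 1.02 against 0.931 and 0.815 (log2 change -0.05, SE 0.18).

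On the ligand side, *EFNA1*, a GPI-anchored ephrin, measured 1.93 and 2.03 in mock cells and 3.05 and 2.91 after knockdown. Duplicates were close and the groups far apart, at a log2 change of 0.59 (SE 0.12, limma adjusted p = 0.141). *EFNA5*, a ligand of the same class, went the other way, from 0.833 and 0.869 to 0.593 and 0.576, a log2 change of -0.54 (SE 0.12, limma adjusted p = 0.155). *EFNB2*, a transmembrane ephrin known for marking arterial vessels, had signals of 0.140 and 0.133 against 0.195 and 0.178 (log2 change 0.45, SE 0.13, limma adjusted p = 0.208), and 0.21 under normexp. *EFNB3*, also a transmembrane ephrin, measured 0.396 and 0.364 in mock cells and 0.321 and 0.410 after knockdown, where the knockdown arrays fell on either side of the mock arrays.

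In the slit, netrin and related families 1 member had p under 0.05. *NTN4*, a netrin of basement membranes, was dim at 0.055 and 0.058 in mock cells and 0.084 and 0.077 after knockdown. The groups did not overlap, and the log2 change of 0.51 (SE 0.13, limma adjusted p = 0.180) was 0.20 under normexp. *NTN1*, a secreted netrin that binds DCC, measured 0.605 and 0.573 against 0.499 and 0.418 (log2 change -0.37, SE 0.15, limma adjusted p = 0.326). *ROBO1*, a slit receptor, measured 1.82 and 1.95 against 1.55 and 1.16 (log2 change -0.49, SE 0.19, limma adjusted p = 0.297). Both knockdown arrays were lower for each of these 2 genes, but neither passed the threshold. Without SOX2 knockdown replicate 2 the log2 change was -0.24 for *NTN1* and -0.29 for *ROBO1*.

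*SLIT3* was the only slit compared, at 0.140 and 0.154 in mock cells and 0.113 and 0.157 after knockdown, and its arrays overlapped (log2 change -0.14, SE 0.21). Of the 5 features of netrin receptors 3 were compared, and none had p under 0.05. The feature of *UNC5D* averages a probe annotated to *TEX2* (1.80 and 1.85 in mock cells, 2.04 and 1.83 after knockdown) with the *UNC5D* probe itself, and the latter had S/N under 3 on all 4 arrays. Its log2 change of 0.09 (SE 0.13) is therefore that of the *TEX2* probe.

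Among the other genes caught by the prefixes, *SLITRK6*, which encodes a transmembrane protein with leucine-rich repeats, measured 4.23 and 4.49 in mock cells and 8.27 and 8.02 after knockdown. Both knockdown arrays lay well above both mock arrays, and the log2 change was 0.90 (SE 0.12, ratio of means 1.87, limma adjusted p = 0.101). *SLITRK3* of the same family had S/N under 3 on both knockdown arrays. It was kept only through the mock group, so the filter favoured a lower value after knockdown. Its measured means were 0.048 in mock cells and 0.032 after knockdown. With the knockdown arrays set to the signal that S/N of 3 would need at that spot, the difference was 1.27-fold. This allows for the detection limit but not for the spread between arrays. Replicate 2 measured 0.042 in mock cells and 0.041 after knockdown, and the limma adjusted p of the fit was 0.426. The fitted log2 change of -0.62 was no bound: it was -0.21 without SOX2 knockdown replicate 1 and -0.042 with signals floored at 0.05. Without the 6 features of such genes that were compared, 51 members remained. Of these 13 had limma p under 0.05 (25.5%, beside 17.2% of all features), 5 higher and 8 lower.

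Sequences upstream of the members with the largest changes are shown because *SOX2* binds DNA through its HMG box, whose core recognition letters are CATTGT and CTTTGT. RefSeq promoter windows of 300 bases (250 before and 50 after a start site, assembly GRCh38.p14, written 5′ to 3′ on the gene's strand) were available for 68 of the 79 genes. They were available for 13 of the 14 members with p under 0.05, all but *SEMA3A*. The 2 lower and 2 higher members with the largest changes have the following 6 windows, with both motifs, read on either strand (ACAATG and ACAAAG as reverse complements), in capitals.
*SEMA3E*, first window, chr7:83649090-83649389, minus strand: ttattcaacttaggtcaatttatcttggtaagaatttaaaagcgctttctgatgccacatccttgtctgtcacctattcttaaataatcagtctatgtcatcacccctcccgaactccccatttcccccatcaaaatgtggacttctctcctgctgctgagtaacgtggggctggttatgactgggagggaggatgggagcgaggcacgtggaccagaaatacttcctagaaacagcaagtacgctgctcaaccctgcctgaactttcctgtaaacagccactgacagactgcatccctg
*SEMA3E*, second window, chr7:83641382-83641681, minus strand: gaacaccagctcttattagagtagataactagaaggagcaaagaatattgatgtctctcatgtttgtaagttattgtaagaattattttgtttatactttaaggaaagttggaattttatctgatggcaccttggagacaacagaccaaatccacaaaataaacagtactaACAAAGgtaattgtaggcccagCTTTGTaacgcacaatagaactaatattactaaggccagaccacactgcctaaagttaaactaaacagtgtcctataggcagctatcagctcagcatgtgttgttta
*SEMA5A*, chr5:9546026-9546325, minus strand: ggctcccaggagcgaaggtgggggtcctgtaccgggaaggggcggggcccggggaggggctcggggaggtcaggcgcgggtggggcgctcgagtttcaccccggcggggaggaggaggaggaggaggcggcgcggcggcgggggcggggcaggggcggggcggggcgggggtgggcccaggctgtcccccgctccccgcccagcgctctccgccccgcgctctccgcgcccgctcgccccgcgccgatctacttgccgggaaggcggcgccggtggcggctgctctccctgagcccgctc
*EPHA4*, first window, chr2:221574153-221574452, minus strand: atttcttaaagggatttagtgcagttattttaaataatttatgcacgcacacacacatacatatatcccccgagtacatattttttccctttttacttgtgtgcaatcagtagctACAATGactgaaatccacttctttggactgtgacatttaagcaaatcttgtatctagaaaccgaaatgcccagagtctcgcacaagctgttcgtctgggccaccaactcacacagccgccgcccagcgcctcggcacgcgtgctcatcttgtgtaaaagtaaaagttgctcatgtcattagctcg
*EPHA4*, second window, chr2:221572255-221572554, minus strand: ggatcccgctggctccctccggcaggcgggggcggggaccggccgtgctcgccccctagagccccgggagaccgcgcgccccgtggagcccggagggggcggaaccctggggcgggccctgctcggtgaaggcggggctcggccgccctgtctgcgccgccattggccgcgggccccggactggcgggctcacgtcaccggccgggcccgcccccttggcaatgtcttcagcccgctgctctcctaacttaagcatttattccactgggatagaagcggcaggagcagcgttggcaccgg
*SLITRK6*, chr13:85799370-85799669, minus strand: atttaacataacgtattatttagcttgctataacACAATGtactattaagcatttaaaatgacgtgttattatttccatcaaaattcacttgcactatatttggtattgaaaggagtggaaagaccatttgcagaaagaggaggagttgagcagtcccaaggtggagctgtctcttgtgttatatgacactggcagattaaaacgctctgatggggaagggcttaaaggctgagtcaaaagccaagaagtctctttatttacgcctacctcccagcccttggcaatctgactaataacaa

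The second *SEMA3E* window holds ACAAAG at -79 and CTTTGT at -57 from the start site, the first *EPHA4* window holds ACAATG at -135, and the *SLITRK6* window holds ACAATG at -216. The first *SEMA3E* window, the second *EPHA4* window and the *SEMA5A* window hold neither motif. Such matches are common. CATTGT or its reverse complement occurs in 10.8% of 35116 RefSeq windows and in 9 of the 108 windows of the members (8.33%), and CTTTGT or its reverse complement in 16.1% and in 11 of 108 (10.2%). In the windows shown, no match of one motif overlaps a match of the other. A match is a description of the letters and not of binding. The study mapped *SOX2* binding in LN229 cells by sequencing immunoprecipitated DNA (ChIP-seq) and derived its own consensus, wwTGnwTw. Neither was used here.

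Probes of the same gene did not always move alike. *EPHB2* was measured by 2 probes, with log2 changes of 0.51 (SE 0.16) and 0.52 (SE 0.19). *NRP2* likewise had -0.26 (SE 0.18) and -0.22 (SE 0.20) from its 2 probes. *SEMA6A* was split, as probe 169659 read 1.29 and 1.06 in mock cells and 1.36 and 1.59 after knockdown (log2 change 0.33, SE 0.17), whereas probe 201066 read 0.066 and 0.074 against 0.061 and 0.037 (log2 change -0.56, SE 0.28). Both passed S/N of 3 on each of the 4 arrays, and the groups were separated in opposite directions. *EFNA5* rested on 1 of its 2 probes, the other being at background on all 4 arrays, and *PLXNA1* had log2 changes of -0.29 (SE 0.16) and 0.00 (SE 0.19).

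**Figure D3:**
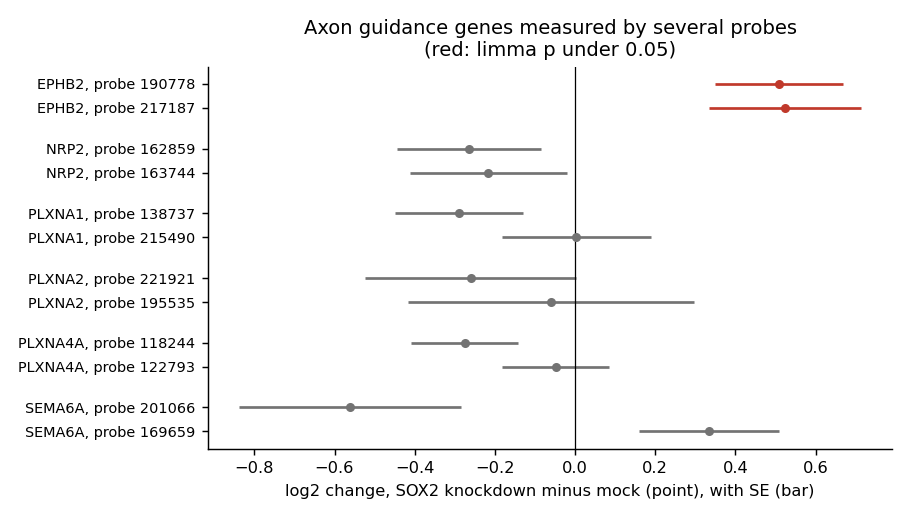
The log2 change of each probe, SOX2 knockdown minus mock (x axis), with its standard error from limma, for the axon guidance genes with 2 probes above background. Red marks limma p under 0.05. The *EPHB2* probes agree at 0.51 and 0.52, and the *SEMA6A* probes lie on opposite sides of 0.

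Other genes of the pathway were read from lists written for this work, with earlier results of these data known. Their counts are therefore a description and no independent test. Of 30 other guidance ligands and receptors on the array, 20 were compared, with 14 below 0 and 6 above and a median log2 change of -0.22. At limma p under 0.05 9 of them were lower and none was higher, beside 9.07% and 8.12% of all features. Between 4 (without SOX2 knockdown replicate 2) and 8 were lower, and 1 or none was higher, when 1 array was left out. The 3 with the smallest p were the cell adhesion molecules *MAG*, *ALCAM* and *NRCAM*. *ALCAM*, an adhesion molecule of the immunoglobulin family, measured 4.51 and 4.05 in mock cells and 2.29 and 2.02 after knockdown (log2 change -0.99, SE 0.14, limma adjusted p = 0.102). The study already lists *ALCAM* among the genes changed after knockdown. *MAG*, a myelin protein that inhibits axon growth, measured 1.72 and 1.92 against 0.979 and 0.906 (log2 change -0.95, SE 0.14), and *NRCAM*, a co-receptor of neuropilins, 0.758 and 0.812 against 0.459 and 0.408 (log2 change -0.86, SE 0.14). The other 6 were *CHL1*, *CNTN1*, *NFASC*, *ADAM10*, *BOC* and *PTPRS*, with log2 changes between -0.91 and -0.49.

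The growth cone signalling effectors, the intracellular partners of these receptors, included 50 genes on the array. Of these 46 were compared, 23 above and 23 below 0 with a median of 0.00, but 17 above and 29 below under normexp. At limma p under 0.05 4 were higher and 3 lower, beside 8.12% and 9.07% of all features. The lower count was 0 with array median scaling, with no further scaling, in the authors' table, with the replicate number as a block, and without mock replicate 2 or SOX2 knockdown replicate 2. *NGEF*, an exchange factor that binds EphA receptors, measured 0.270 and 0.284 in mock cells and 0.457 and 0.425 after knockdown (log2 change 0.67, SE 0.13). *TRIO*, another exchange factor, measured 0.570 and 0.631 against 1.02 and 0.889 (log2 change 0.67, SE 0.14), and *RND1*, whose protein binds plexins, 0.189 and 0.129 against 0.252 and 0.286 (log2 change 0.78, SE 0.23). *VAV2*, an exchange factor activated by Eph receptors, measured 0.035 and 0.013 in mock cells and 0.052 and 0.064 after knockdown. It was kept through the knockdown group, S/N was over 3 on only 1 mock array, and with S/N over 3 required on all 4 arrays 3 effectors were higher. The lower effectors were *CHN1* (log2 change -0.49, SE 0.13), which encodes a GTPase-activating protein, *FYN* (-0.38, SE 0.12), a kinase, and *DPYSL2* (-0.44, SE 0.16), a tubulin-binding protein of growth cones.

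**Figure D4:**
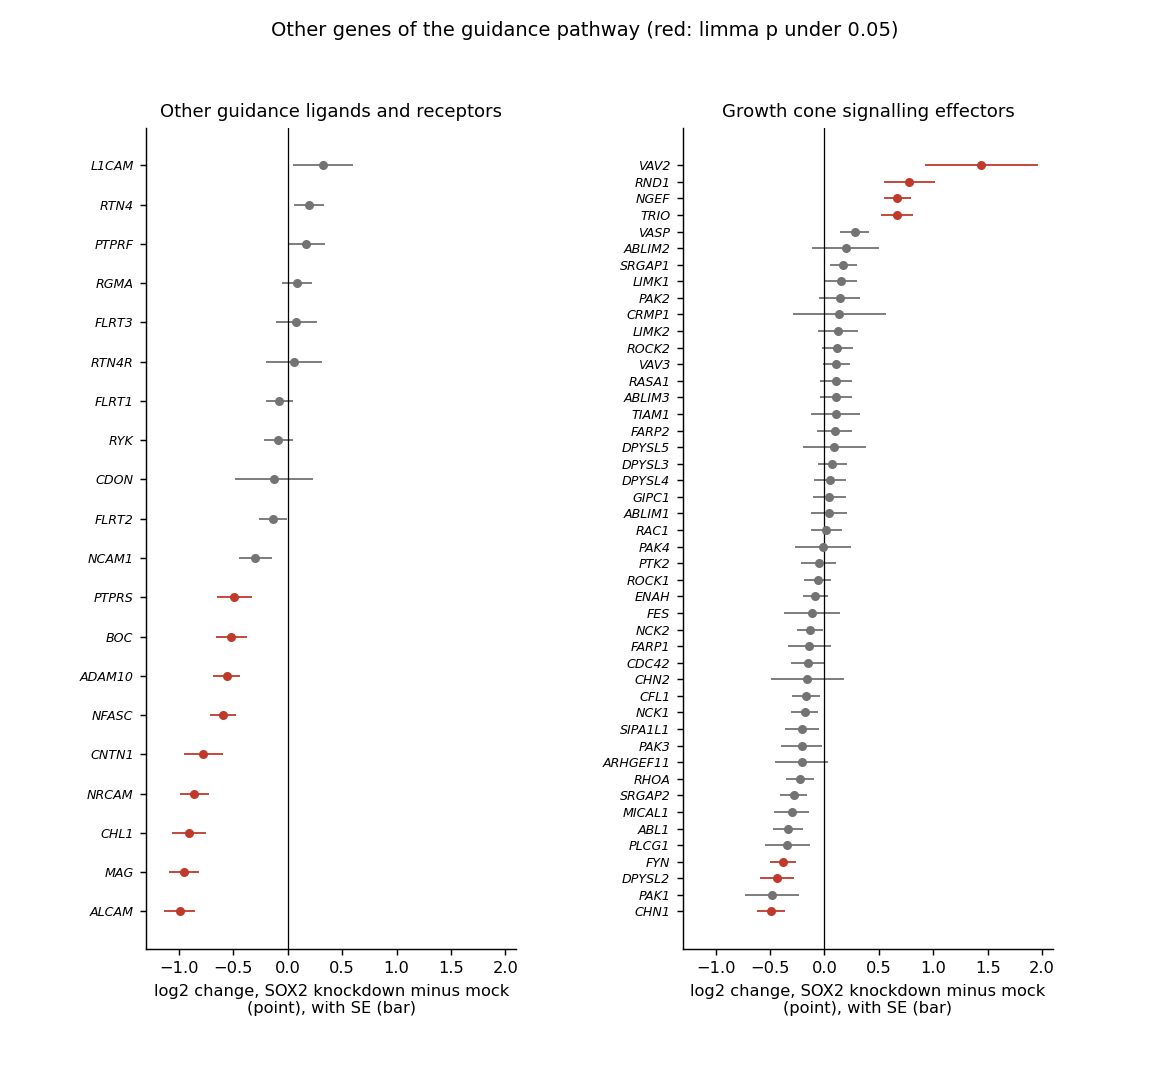
The log2 change, SOX2 knockdown minus mock (x axes), with its standard error from limma, of the 20 other guidance ligands and receptors and the 46 growth cone signalling effectors compared. Red marks limma p under 0.05. All 9 red points on the left panel lie below 0, and the right panel has 4 above and 3 below.

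Neuronal markers were counted beside these groups, since many guidance genes are used by neurons. Of 10 markers, 9 were compared and 8 passed S/N of 3 on each of the 4 arrays, while *DCX*, a marker of young neurons, had it on none. Together these markers summed to signals of 16.4 and 16.2 for mock and 19.3 and 19.2 for knockdown. Most of this came from *TUBB3* (7.89 and 7.11 for mock, 8.63 and 9.09 for knockdown) and *STMN2* (4.96 and 5.60, 5.97 and 5.63). Of the 9 compared, 6 had a log2 change above 0 and 3 below. At limma p under 0.05 *SYT1* was higher (log2 change 0.72, SE 0.15). *GAP43* was lower at that p, but it was kept through the mock group and measured 0.032 and 0.034 in mock cells against 0.022 and 0.015 after knockdown, where it was not above background on either array. Their part in the changes of the guidance genes was not tested.

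The floors, S/N filters, variance model and replicate blocks did not alter the log2 changes of the 14 members, which were picked by p on these same arrays. A kept sign was thus given in advance there. It was also given in advance with 1 array left out. For each of the 14, both knockdown arrays lay on the same side of both mock arrays. All 14 members kept their sign in the remaining alternatives too. Array median scaling and no further scaling shifted the changes by too little to turn a sign (*SEMA4C* from -0.42 to -0.45 in both). With 1 array left out in turn, the log2 changes of the 14 ran from -1.56 (*SEMA3E*) to 1.02 (*EPHA4*). The one nearest to 0 was -0.35 (*SEMA4C*, without mock replicate 2). Of the 14, *SEMA4G* was kept only through the mock group.

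**Figure D5:**
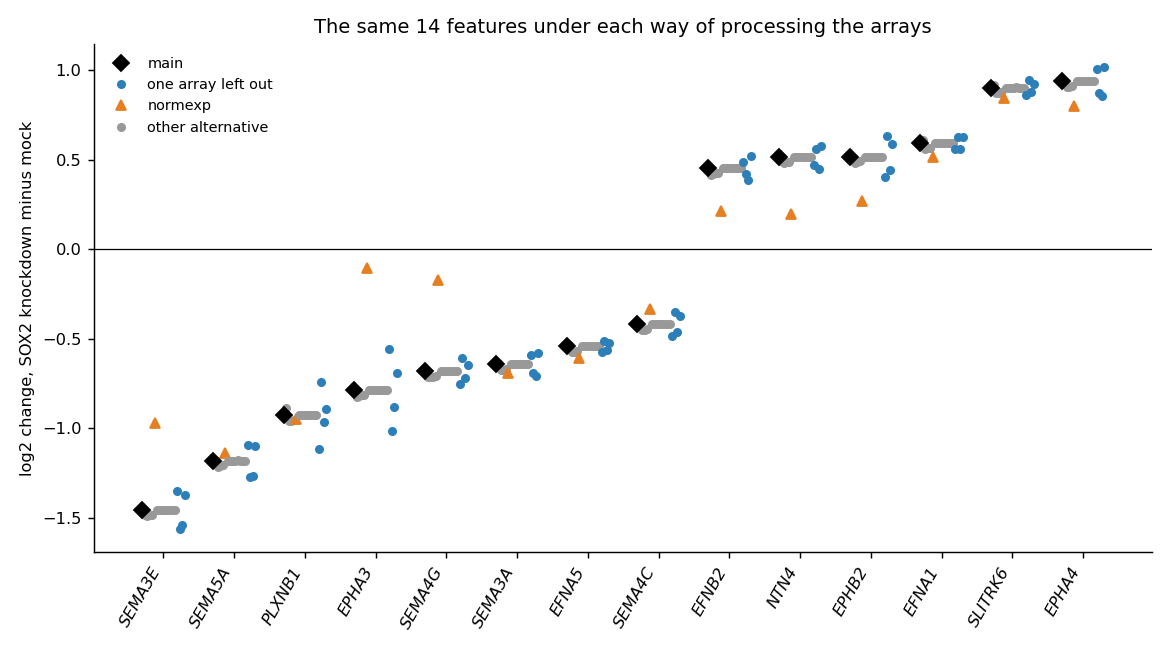
The log2 change, SOX2 knockdown minus mock (y axis), of the 14 axon guidance features with limma p under 0.05 under each way of processing the arrays. Black diamonds are the values reported, blue points leave out 1 array, orange triangles use normexp background correction and grey points are the other alternatives. No point crosses 0, and the triangles of *EPHA3* (-0.11) and *SEMA4G* (-0.17) lie nearest to it. Many grey points repeat the value reported, since floors, S/N filters, variance model and blocks did not alter it. Blue points could not cross 0, since the groups did not overlap for any of the 14.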

How the data were processed

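Biotin-labelled RNA was measured on 1-colour Human Genome Survey arrays of Applied Biosystems, which are read by chemiluminescence, with 2 arrays per group. The labels' source names gave the groups and their titles the replicate numbers. The normalized signal in the deposited scanner files is a linear intensity made by the scanner software, whose version is not given in the sources used here. Per the file headers S/N and the error are separate columns, used here as a score of the distance from background. Checked on the values, S/N equals the assay-normalized intensity over its error for probes without flags. A second deposited table holds a linear ratio per probe that the authors made in GeneSpring, used as an alternative. Between 63.5% and 68.9% of probes had S/N over 3 on an array.

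Control spots and 210 probes with a flag of 5000 or more were left out. Probes of one gene ID were averaged, each array was divided by its 75th percentile (6.12 to 7.07), values were floored at 0.01 and log2 was taken. Of 27739 features 18378 were compared, with limma 3.58.1 (R 4.3.3; lmFit and eBayes, no block, two-sided) and Benjamini-Hochberg adjustment over all of them, and by a 2-fold ratio of linear means, the cutoff of the study's methods. The code was tested on simulated data. Tables were made in Python 3.11.15 with pandas 2.3.3.

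The rule for named genes took *SOX2*, members over 2-fold or with p under 0.05, and the brightest feature of each family. It also took the members that the study lists as changed (*SEMA3E* and *SEMA5A*) and members whose probes disagree. Members with a bound over 1.5-fold by the dimmest signal above background on the array (*SLITRK3*) were added. In the pathway lists it took those over 2-fold and the 3 with the smallest p in each direction. *DCC*, *ROBO2*, *SEMA3D*, *NRP1*, *PLXNB3* and *PLXND1*, the other 6 genes of the first pathway list and the marker genes were named outside it. The members and lists were chosen with earlier results of these data known. The files name no genome build, so the RefSeq table of GRCh38.p14 served for names, gene order and promoter windows only. Alternatives covered scaling, background, floor, filters, single probes, variance model, fold cutoff, a replicate block and leaving out each array.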

Additional observations from a re-analysis of the deposited data

How the results depend on the processing

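Of 28 named member values, 21 kept their direction in every alternative run, and of 483 alternative values 11 were reversed. Many of the 483 could not reverse, so these counts are no measure of stability. The S/N filters, variance model and blocks, and mostly the floors, left the log2 change as it was. Where the groups did not overlap, leaving out 1 array could not turn the direction either. With each array left out in turn, the log2 change ran from -0.15 to 0.029 for *EPHA2*, from -0.22 to 0.13 for *EPHB3*, from -0.24 to 0.11 for *EFNB3*, from -0.20 to 0.042 for *PLXNA1*, from -0.20 to 0.0023 for *PLXNB2* and from -0.38 to 0.10 for *SLIT3*. *SLIT3* was 0.18 under normexp, *SEMA6A* was -0.56 by probe 201066 and *PLXNA1* 0.0033 by probe 215490.

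No member had an adjusted p under 0.05, but 4 did (*EPHA4*, *PLXNB1*, *SEMA3E* and *SEMA5A*) with array median scaling, 4 with no further scaling and 4 in the authors' table, where limma gave every feature the same standard error of 0.28. There, 669, 650 and 639 of all features passed, and *SOX2* passed at a log2 change of -1.72 each time. With limma-trend 3 members passed (*SEMA3E*, *SEMA5A* and *SLITRK6*), of 240 features in all. Over 2-fold there were 1 member under normexp (0.958% of all features), 5 with no S/N filter (3.8%), 10 at a 1.5-fold cutoff (9.86%) and 0 at a 3-fold cutoff (0.511%).

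Leaving out each array gave 2 to 4 members over 2-fold (2.95% to 4.04% of all features), 0 with an adjusted p under 0.05, 9 to 17 with p under 0.05 (7.67% to 16.6% of all features), a median member change of -0.18 to -0.018 and a *SOX2* change of -1.98 to -1.40. In these fits the lone array is assumed to vary like the other group.

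With the replicate number as a block, 0 members had an adjusted p under 0.05 and 10 had p under 0.05 (8.96% of all features), 4 higher and 6 lower. The deviations of same-numbered arrays from their group means correlated at -0.499 over features. This value cannot show how the transfections or arrays were paired, and its cause was not tested. A crossed pairing, chosen after seeing the data, gave 0 and 21 (26.4% of all features). No slide or scan date could be fitted as a block, as none is shared by arrays in the files used here. With 2 arrays per group no test for a stray sample was made. The changes of dim members, such as *EPHA3*, *SEMA4G* and *NTN4*, were smaller under normexp with its offset of 50. The cause of the differences was not tested.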
